A study of Homo sapiens with 15 samples.

Results

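The genes described here are the histone genes of the 4 human histone gene clusters, named HIST1 to HIST4 in the deposited table. They were chosen as the protein-coding genes whose symbol starts with HIST, a cluster number and H, which gave 71 genes of the 58676 in the table. By the type of histone they encode, 6 were H1, 17 were H2A, 18 were H2B, 15 were H3 and 15 were H4 genes. HIST1 held 55 of them, at 25726132 to 27893843 on chromosome 6, HIST2 held 12 and HIST3 held 3 on chromosome 1, and HIST4 held 1 on chromosome 12 (positions of the table, GRCh38 per the submitters' processing notes).

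The cells were PATU-8988T, a human cell line established from a pancreatic cancer, and their RNA was sequenced in 5 groups of 3 libraries each. One group received 0.1% DMSO, the solvent. The others received THZ1 at 100 nM for 4 h, THZ1 at 100 nM for 24 h, YKL-5-124 at 100 nM for 4 h, or YKL-5-124 at 100 nM for 24 h. The series is about inhibition of CDK7, a kinase that acts on RNA polymerase II and on other cyclin-dependent kinases, and both compounds are known as inhibitors of it. No time is given for DMSO, whose 3 libraries were the control for 4 h and for 24 h, so all 4 comparisons with DMSO share them. Whether the libraries of a group were separate cultures is not stated, and the spread behind each p-value may therefore be technical. All come from 1 cell line, and in such bulk RNA fewer cells of a kind and less RNA per cell cannot be told apart.

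Histone proteins package DNA: H2A, H2B, H3 and H4 form the core of the nucleosome, and H1 binds the DNA between nucleosomes. The clustered genes are mostly intronless, are transcribed mainly in S phase when DNA is copied, and give mRNAs that usually end in a conserved stem-loop in place of a poly(A) tail. The stem-loop is bound by SLBP, which takes part in processing, translation and decay of these mRNAs. Many of the genes can also give longer, polyadenylated transcripts, which are known from cells that have left the cell cycle or are differentiating.

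The stem-loop was looked for in the GENCODE 29 transcript models, since it separates the ordinary end of a histone mRNA from a longer, polyadenylated one. The pattern searched, on the transcript strand and after the stop codon, was 16 bases long and left 4 of them free, namely those at which the 6 sequences below differ from each other, with all other bases as in them. It was found in a model of 32 of the 71 histone genes and of 2 of the 19822 other protein-coding genes (0.0101%). The models of 35 histone genes end at the stop codon and could not hold it. The 6 sequences found are shown because they sort by histone type, each under the name of 1 gene that holds it, with the stems in capitals and the loop in lower case.
HIST2H2BE: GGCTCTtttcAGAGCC
HIST1H2BC: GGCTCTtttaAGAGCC
HIST4H4: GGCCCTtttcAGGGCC
HIST2H4A: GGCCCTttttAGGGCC
HIST1H2AG: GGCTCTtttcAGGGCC
HIST1H3E: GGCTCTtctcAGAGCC
The sequence of HIST2H2BE was in 17 genes and that of HIST1H2BC in 5, none of them H4. The sequence of HIST4H4 was in 5 genes and that of HIST2H4A in 3, all of them H4. Those of HIST1H2AG and HIST1H3E were each in that gene alone among the 71. In 23 histone genes a model went on for at least 100 bases after the stem-loop, and 17 of these had enough counts to be tested.

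Promoter sequences are shown for 3 genes whose levels the results turn on: HIST1H2AG, whose promoter is shared head to head with HIST1H2BJ; HIST1H2BG, which had the largest log2 fold change of the 44 tested; and HIST1H1C, the most abundant H1 gene. They are the 250 bases before the RefSeq start site in build GRCh38.p14, read on the gene's strand. Capitals mark 4 motifs on either strand: the octamer ATTTGCAT, the box CCAAT, the box TATAAA and the element AAACACA. Adjacent capitals can be overlapping matches.
HIST1H2AG, chr6:27132793-27133042, plus strand: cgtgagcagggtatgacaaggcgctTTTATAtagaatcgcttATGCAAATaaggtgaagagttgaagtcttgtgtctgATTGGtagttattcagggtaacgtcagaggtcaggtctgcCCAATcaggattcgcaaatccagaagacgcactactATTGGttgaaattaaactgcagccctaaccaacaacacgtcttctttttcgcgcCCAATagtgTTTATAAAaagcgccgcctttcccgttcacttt
HIST1H2BG, chr6:26216689-26216938, minus strand: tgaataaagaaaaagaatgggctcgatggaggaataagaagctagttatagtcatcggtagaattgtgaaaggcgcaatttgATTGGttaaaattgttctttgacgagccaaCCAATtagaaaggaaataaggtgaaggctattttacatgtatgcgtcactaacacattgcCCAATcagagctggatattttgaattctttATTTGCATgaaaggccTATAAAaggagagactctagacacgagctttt
HIST1H1C, chr6:26056471-26056720, minus strand: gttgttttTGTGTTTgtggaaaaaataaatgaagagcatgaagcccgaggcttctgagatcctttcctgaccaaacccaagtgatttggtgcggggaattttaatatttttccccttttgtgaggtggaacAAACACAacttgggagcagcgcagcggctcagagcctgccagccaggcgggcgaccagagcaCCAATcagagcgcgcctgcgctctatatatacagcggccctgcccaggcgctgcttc
RefSeq gave such a window for 61 of the 71 histone genes. The octamer was in 11 of 14 H2A and 14 of 18 H2B windows, in no H1, H3 or H4 window, and in 1.63% of all 35116 windows. AAACACA was in all 6 H1 windows and in no other histone window, against 4.82% of all. CCAAT was in all 48 windows of H1, H2A, H2B and H3 genes but in 3 of 13 H4 windows, against 32.0% of all. TATAAA was in 41 of the 61, against 10.7% of all. The matches describe these letters only.

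Counts were found for 62 of the 71 genes, and 44 passed the filter on low counts: 3 H1, 11 H2A, 12 H2B, 7 H3 and 11 H4 genes. The 18 genes that had counts but did not pass held at most 103 counts over the 15 libraries, and 9 genes had none. Histone genes took 0.0122% to 0.0174% of all counts in the DMSO libraries. Transcripts known to lack a poly(A) tail were nearly absent: RN7SK, RMRP, RN7SL1 and RNY1 were at 0 in all 15 libraries, and 15 such RNAs together took at most 0.000789% of any library. The labels and notes name no selection of the RNA (poly(A) or removal of ribosomal RNA). Levels below therefore refer to whichever histone transcripts these libraries captured, and a change in the level of a histone mRNA cannot be told apart from a change in the share of it that carries a poly(A) tail.

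Depth was 15567057 to 22869590 counts per library. Levels are CPM, counts relative to the library total scaled by TMM factors, and tests are edgeR quasi-likelihood tests with Benjamini-Hochberg adjustment over 14461 genes, called at an adjusted p under 0.05. The scaling matters after 24 h of THZ1, where mRNAs of ribosomal proteins took 20.8% to 23.1% of counts, against 9.04% to 11.6% in DMSO. With library totals the median over all genes shifted by -1.13 (log2) from its TMM value in that comparison, and with ribosomal protein mRNAs as the reference by -2.19. For YKL-5-124 at 24 h the shifts were 0.14 and 0.58. Marker levels are CPM of library totals, without TMM factors. Of 8 epithelial and ductal markers, KRT8 (1091 to 1647 CPM), KRT18, EPCAM, KRT7, CDH1 and SOX9 had counts in all 15 libraries. Of these, KRT7 was at most at 2.37 CPM, and CDH1 and SOX9 at no more than 9.89 CPM. KRT19, a defining ductal keratin, had counts in 2 libraries and at most 0.110 CPM, and MUC1 was at most at 0.642 CPM. The 4 mesenchymal markers had counts in all 15, with VIM at 151 to 226 CPM, and 5 acinar and islet markers were at 0.

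In DMSO, a few genes made up most of the histone signal. The 5 most counted genes held 64.5% of histone counts. Per kilobase of gene model, HIST1H2BK (an H2B gene) was highest at a mean of 73.5 CPM per kb, followed by HIST1H1C at 30.3 and HIST3H2A at 23.4. The next, HIST1H4I, was at 6.51 CPM per kb, and HIST1H2BG was at 0.0344. The models of HIST1H2BK and HIST1H1C hold only coding sequence, so reads from their untranslated ends were not counted.

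After 4 h, edgeR called no histone gene higher with either compound, while DESeq2 called 1 higher with THZ1 and edgeR with no filter on low counts 2. With YKL-5-124, 0 of 44 were called higher and 0 lower than DMSO by edgeR (0.0553% and 0.463% of all genes tested were), and 1 had an unadjusted p under 0.05. For YKL-5-124, DESeq2 called 0 as well. With THZ1, 4 of 44 were called lower and 0 higher, against 25.1% and 16.9% of all genes tested. The median log2 fold change of the 44 was -0.22 after THZ1, against 0.00 for all genes, and -0.18 after YKL-5-124.

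The 4 genes that fell after 4 h of THZ1 were HIST2H3D, HIST4H4, HIST3H2BB and HIST2H2BF, none of them in HIST1. HIST2H3D encodes an H3 histone. Its levels were 0.977, 0.580 and 0.548 CPM in DMSO and 0.380, 0.265 and 0.0465 CPM in THZ1 4 h, which do not overlap (log2 fold change -1.59 ± 0.57 SE, adjusted p = 0.037 by edgeR). HIST4H4, the H4 gene that stands alone in HIST4, was at 0.888, 1.04 and 1.31 CPM in DMSO and at 0.569, 0.530 and 0.326 CPM in THZ1 4 h (log2 fold change -1.18 ± 0.44 SE, adjusted p = 0.043 by edgeR). HIST3H2BB fell by 1.09 and HIST2H2BF by 1.06 on the log2 scale (adjusted p = 0.046 and 0.017 by edgeR). The counts are small, and leaving out 1 library at a time left 0 to 4 calls, with 1 without DMSO replicate 1, 2 without DMSO replicate 3, 1 without THZ1 4 h replicate 2 and 0 without THZ1 4 h replicate 3. The HIST4H4 call was lost without DMSO replicate 2 or 3 or any 1 of the THZ1 4 h libraries. That of HIST3H2BB was lost without DMSO replicate 1 or 3 or THZ1 4 h replicate 2 or 3. HIST2H3D lost its call without DMSO replicate 1 or THZ1 4 h replicate 2 or 3, and HIST2H2BF without DMSO replicate 1 or THZ1 4 h replicate 3. HIST2H2BF and HIST2H3D were called under all 5 scalings compared. All 4 were called higher than DMSO at 24 h with TMM, with log2 fold changes of 1.65 for HIST2H3D, 3.35 for HIST4H4, 3.13 for HIST3H2BB and 0.80 for HIST2H2BF. The 24 h call of HIST2H2BF was lost without DMSO replicate 2 (0.62, adjusted p = 0.11 by edgeR) or DMSO replicate 3 (0.84, adjusted p = 0.054 by edgeR). Relative to ribosomal protein mRNAs the first became -0.50 and the last -1.35, and with library totals HIST2H2BF had -0.32. HIST2H2BF shares exonic sequence with FCGR1A in the annotation, and without strand, on which the sources are silent, reads of this pair cannot be told apart.

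After 24 h, histone transcripts were higher with both compounds. The summed level of all 71 genes was 151.1, 96.1 and 150.7 CPM in DMSO, 447.4, 445.6 and 439.8 CPM in THZ1 24 h and 743.7, 714.3 and 512.2 CPM in YKL-5-124 24 h. No library of either 24 h group overlapped DMSO. The ratio of means to DMSO was 3.35 for THZ1 and 4.95 for YKL-5-124. With 3 libraries against 3, an exact two-sided permutation test of such a sum cannot go below 0.1. Relative to ribosomal protein mRNAs the THZ1 ratio turned round, to a log2 ratio of -0.40, and relative to library totals it was 0.63, against 1.74 with TMM. The YKL-5-124 log2 ratio was 2.31 with TMM and 2.91 relative to ribosomal protein mRNAs.

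**Figure D1:**
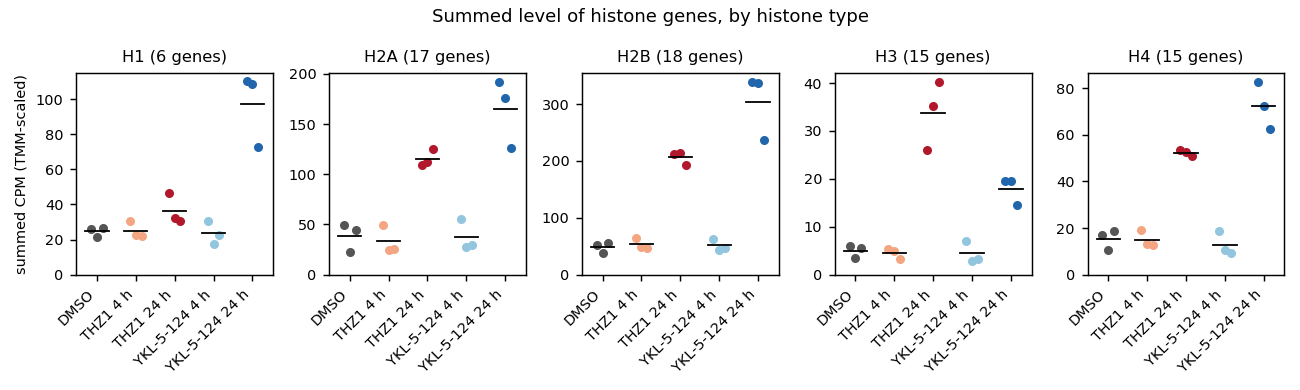
Summed CPM of the histone genes of each type (vertical axis, TMM-scaled, starting at 0) in the 5 groups (horizontal axis); points are libraries and bars are means of 3. In H1, H2A, H2B and H4 the YKL-5-124 24 h libraries are highest, while in H3 the THZ1 24 h libraries are, at 26.1 to 40.2 CPM against 14.6 to 19.6 CPM, an order that turns round with library totals. Without its most abundant gene the mean of H2B, and likewise of H4, is not higher after YKL-5-124 than after THZ1 (log2 ratio of THZ1 to YKL-5-124 0.0839 and 0.40).

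By type, H2B gained most after YKL-5-124 and H3 most after THZ1. Summed H2B rose from a mean of 48.8 ± 9.48 CPM in DMSO to 304.3 ± 59.1 CPM after 24 h of YKL-5-124 (SD, n = 3), a ratio of 6.23, and to 206.5 ± 11.4 CPM after THZ1, a ratio of 4.23. Summed H3 went from 5.04 ± 1.32 CPM to 33.8 ± 7.15 CPM after THZ1, a ratio of 6.71, and to 17.9 ± 2.88 CPM after YKL-5-124, a ratio of 3.55. H3 genes held 3.79% of histone counts in DMSO, 7.62% after THZ1 and 2.74% after YKL-5-124. H1 genes went the other way after THZ1, from 19.1% to 8.21%. These shares do not depend on the scaling between libraries, but whether summed H3 was higher after THZ1 than after YKL-5-124 does: the log2 ratio between them was 0.92 with TMM, -0.35 with library totals and -1.81 relative to ribosomal protein mRNAs. Relative to ribosomal protein mRNAs the sums after THZ1 were below DMSO for H1 (log2 ratio -1.62), H2A (-0.54), H2B (-0.0762) and H4 (-0.37), and with library totals for H1 (-0.56). The order of the compounds for H2B and H4 rests on 1 gene each: the log2 ratio of THZ1 to YKL-5-124 was -0.56 for H2B and -0.47 for H4, and 0.0839 and 0.40 without the most abundant gene of the type. The H1 sums rest on HIST1H1C: without it, the log2 ratio of summed H1 to DMSO was -0.82 after THZ1 and -0.44 after YKL-5-124.

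After 24 h of YKL-5-124, 25 of 44 histone genes were called higher and 1 lower than DMSO, against 8.92% and 12.7% of all genes tested. The median log2 fold change was 1.49, against -0.04 over all genes. All 25 changed at least 2-fold, and the same 25 were called under each of the 5 scalings. They included 10 of 12 H2B genes, 6 of 11 H2A, 6 of 11 H4, 2 of 7 H3 and 1 of 3 H1 genes. HIST1 gave 18 of its 33 tested genes, HIST2 5 of 8 and HIST3 both of 2, while the HIST4 gene was not called.

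The most abundant histone genes were among those that rose with YKL-5-124. HIST1H2BK was at 29.6, 21.7 and 32.7 CPM in DMSO and at 204.2, 205.2 and 140.5 CPM after 24 h, with a log2 fold change of 2.71 ± 0.21 SE (adjusted p = 1.9e-06 by edgeR). HIST1H1C, a linker histone gene, was at 21.3, 15.7 and 21.4 CPM and then at 106.8, 104.3 and 68.5 CPM (log2 fold change 2.26 ± 0.25 SE, adjusted p = 2.4e-05 by edgeR). HIST1H2AC, an H2A gene, was at 11.2, 4.06 and 11.3 CPM and then at 79.1, 66.5 and 47.1 CPM (log2 fold change 2.86 ± 0.43 SE, adjusted p = 0.00033 by edgeR). In each of the 3 genes the third YKL-5-124 24 h library was the lowest of its group, and no treated library overlapped DMSO. HIST1H2BJ, an H2B gene, rose further, from 3.73, 1.93 and 3.12 CPM to 65.6, 61.1 and 34.7 CPM (log2 fold change 4.20 ± 0.36 SE, adjusted p = 3.2e-06 by edgeR). HIST2H4A, an H4 gene, rose from 0.266, 0.155 and 0.379 CPM to 6.61, 6.21 and 3.55 CPM (log2 fold change 4.34 ± 0.40 SE). Its near-identical copy HIST2H4B had the same log2 fold change of 4.34, and reads of both copies may have been split or dropped in counting. HIST3H2A and HIST1H3B were called at log2 fold changes of 1.18 and 1.19, and each call was lost without single libraries (DMSO replicate 2 or 3 and YKL-5-124 24 h replicate 1 or 2 for both, and YKL-5-124 24 h replicate 3 for HIST1H3B). HIST1H2BG was called at 2.53 from 4 counts in DMSO and 27 after treatment, and lost the call without DMSO replicate 1 or 3 or any 1 of the YKL-5-124 24 h libraries; without DMSO replicate 2 it was 3.67.

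**Figure D2:**
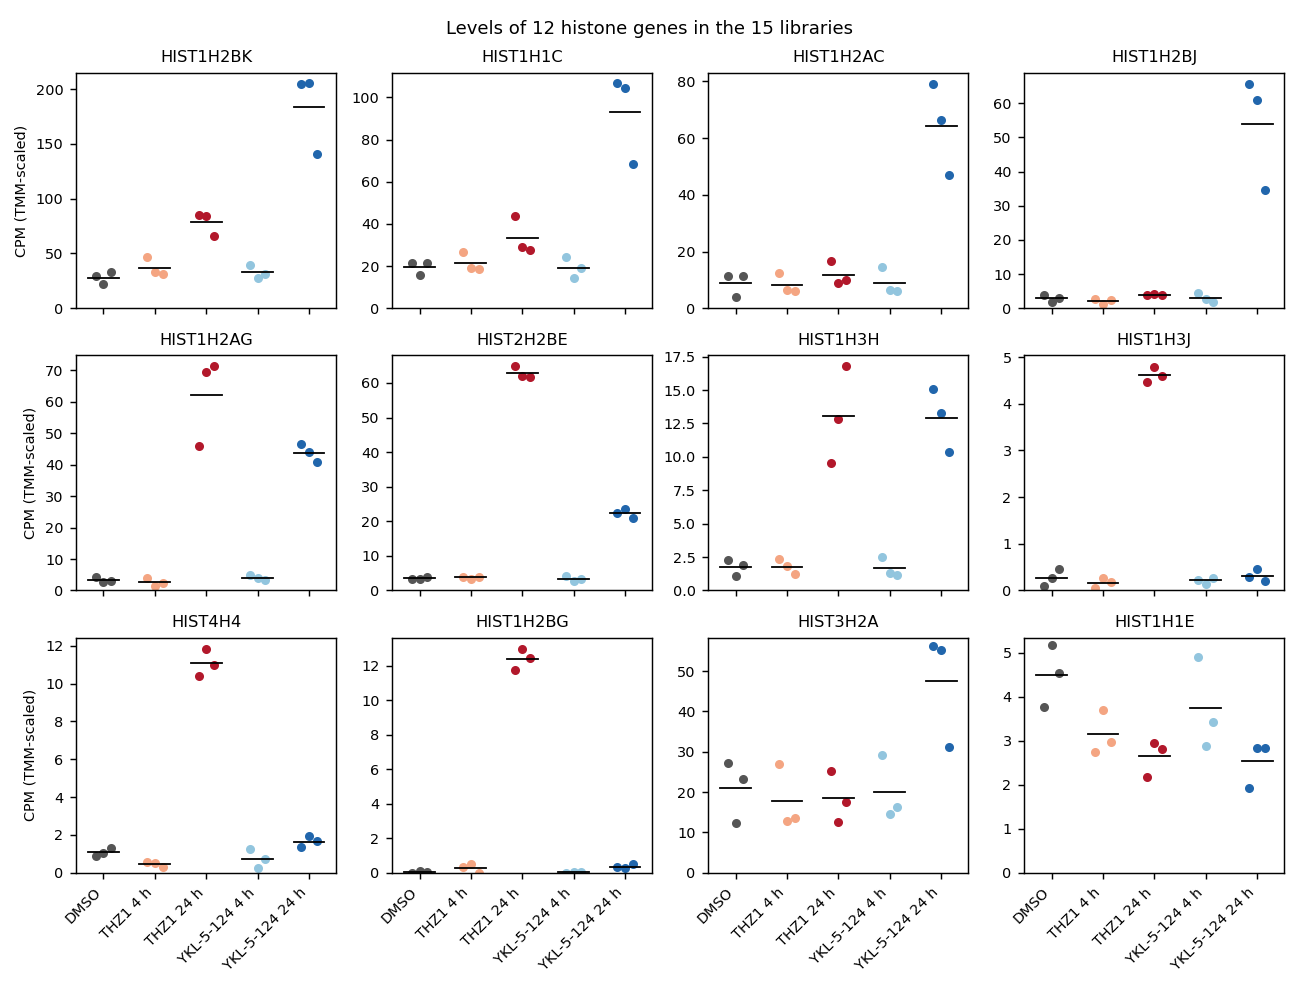
CPM (vertical axes, TMM-scaled, starting at 0, different range in each panel) of 12 histone genes in the 5 groups; points are libraries and bars are means of 3. HIST1H2BJ is highest in the YKL-5-124 24 h libraries (34.7 to 65.6 CPM, at most 4.57 CPM elsewhere), and HIST1H3J, HIST4H4 and HIST1H2BG are highest in the THZ1 24 h libraries. HIST1H2AG and HIST1H3H are high in both 24 h groups, and HIST1H1E is lower than DMSO in both.

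After 24 h of THZ1, 33 of 44 histone genes were called higher and 1 lower than DMSO, against 32.3% and 44.0% of all genes tested. The median log2 fold change was 1.90, against -0.37 over all genes. The count depended on the scaling: 18 were higher with library totals, 36 with RLE or upper-quartile factors and 10 relative to ribosomal protein mRNAs, where 16 were lower. The 10 genes called higher under all 5 scalings were HIST1H2AE, HIST1H2AG, HIST1H2BG, HIST1H3H, HIST1H3J, HIST1H4J, HIST1H4K, HIST2H2BE, HIST3H2BB and HIST4H4. With TMM the genes called higher were 7 of 7 H3, 8 of 11 H2A, 9 of 12 H2B, 8 of 11 H4 and 1 of 3 H1 genes. The H3 genes tested were 7 of 15. A gene with enough counts in 1 group alone passes the filter, so genes high mainly after THZ1 can raise these counts. HIST1H2BG, for example, had 4 counts in DMSO and 343 in THZ1 24 h. Of the RNAs known to lack a poly(A) tail, 3 could be tested. All 3 were called higher than DMSO after 24 h of THZ1 and none after 24 h of YKL-5-124. SNORD3A, a nucleolar RNA, was at a mean of 8.51 ± 1.91 CPM after THZ1 against 1.17 ± 0.423 CPM in DMSO (SD, n = 3), a log2 fold change of 2.87 ± 0.35 SE (-0.40 ± 0.37 SE after YKL-5-124). The others, named after their values were seen, were RNU5A-1, with 1, 0 and 1 counts in DMSO and 13, 11 and 15 after THZ1, and VTRNA1-1, with 2, 0 and 1 counts and 21, 21 and 10. Both had at most 4 counts in any library outside THZ1 24 h and passed the filter only through that group. Their calls were therefore largely set by the filter. The part of these RNAs in the histone result was not tested.

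The named genes with the largest rises after THZ1 were at under 5 CPM in DMSO. HIST1H2BG was at 0, 0.116 and 0.0421 CPM in DMSO, 4 counts in all, and at 11.7, 13.0 and 12.4 CPM after 24 h, 343 counts in all. Its log2 fold change was 7.66 ± 0.65 SE (adjusted p = 3.2e-08 by edgeR), and the ratio of pooled CPM was 224, with an exact 95% interval of 86.5 to 825 that covers counting error only. HIST1H2BG had 27 counts in YKL-5-124 24 h and 2 in YKL-5-124 4 h. It passed the filter on low counts mainly through the THZ1 24 h libraries, so its call may be largely set by the filter. Without DMSO replicate 2, which held most of the DMSO counts, the log2 fold change was 8.79. HIST1H2AG, an H2A gene, rose from 4.40, 2.59 and 3.12 CPM to 45.9, 69.4 and 71.3 CPM (log2 fold change 4.21 ± 0.30 SE, adjusted p = 4.4e-09 by edgeR). HIST2H2BE, an H2B gene, rose from 3.37, 3.17 and 3.83 CPM to 64.9, 62.1 and 61.7 CPM (log2 fold change 4.18 ± 0.15 SE, adjusted p = 7.2e-12 by edgeR). In both genes the groups lie far apart, and the 5 genes most counted in DMSO held 35.8% of histone counts after 24 h of THZ1. HIST1H3J rose from 0.0888, 0.271 and 0.463 CPM to 4.47, 4.80 and 4.59 CPM (log2 fold change 4.04 ± 0.47 SE). HIST4H4 rose to 10.4, 11.8 and 11.0 CPM (log2 fold change 3.35 ± 0.38 SE, adjusted p = 8.2e-07 by edgeR). HIST1H3J shares exonic sequence with HIST1H2AM in the annotation. HIST1H4J, below the level set for naming, had 2 counts in DMSO and 37 after THZ1, a ratio of 48.2 with an exact 95% interval of 12.4 to 413. It had 5 counts in THZ1 4 h, 6 in YKL-5-124 4 h and 21 in YKL-5-124 24 h, so its call may likewise be largely set by the filter.

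The abundant histone genes moved less with THZ1, and their direction depended on the scaling. HIST1H2BK was at 85.3, 83.8 and 65.8 CPM after 24 h, with a log2 fold change of 1.48 ± 0.21 SE that became -0.68 relative to ribosomal protein mRNAs. HIST1H1C had 0.78 ± 0.24 SE, which became -0.34 with library totals and -1.39 relative to ribosomal protein mRNAs. HIST1H2AC (log2 fold change 0.42 ± 0.43 SE), HIST1H2BJ (0.42 ± 0.37 SE) and HIST3H2A (-0.19 ± 0.38 SE) were not called. HIST1H1E, a linker histone gene, was the gene called lower with both compounds: 3.77, 5.18 and 4.55 CPM in DMSO, 2.17, 2.96 and 2.82 CPM after THZ1 and 1.92, 2.83 and 2.84 CPM after YKL-5-124. The log2 fold changes were -0.76 ± 0.26 SE and -0.83 ± 0.24 SE (adjusted p = 0.016 and 0.023 by edgeR). The THZ1 call was lost without DMSO replicate 2 or THZ1 24 h replicate 1, and the YKL-5-124 call without DMSO replicate 2 or 3 or YKL-5-124 24 h replicate 1; neither call held under all 5 scalings. HIST1H1B was not called in either comparison, at 9 counts in THZ1 24 h.

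**Figure D3:**
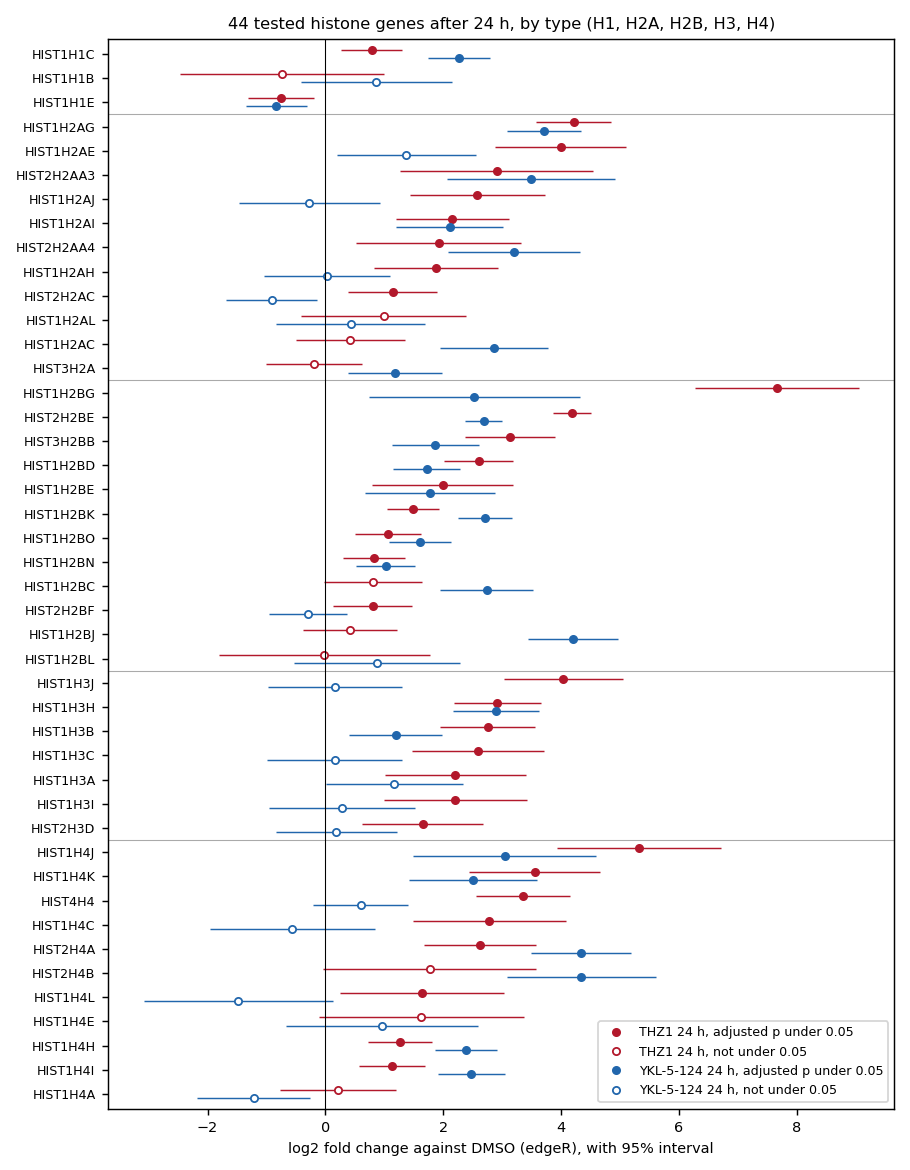
Log2 fold change against DMSO (horizontal axis) of the 44 tested histone genes (rows, grouped by type and ordered by the THZ1 value) after 24 h of THZ1 (red) and of YKL-5-124 (blue), with 95% intervals from the edgeR fit; filled points have an adjusted p under 0.05. All 7 H3 genes are filled for THZ1 and 2 of them for YKL-5-124; both comparisons share the DMSO libraries.

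The compounds were compared with each other at the same dose and time, with no level taken from DMSO. At 24 h, THZ1 was above YKL-5-124 for 20 of 44 histone genes and below for 11, against 31.8% and 44.1% of all genes tested. The comparisons with DMSO share its 3 libraries, and the direct test uses the same 24 h libraries as they do. The overlaps that follow are therefore not independent support. Of the 13 genes called higher than DMSO with THZ1 and not with YKL-5-124, 12 were also above YKL-5-124 in the direct test (the exception was HIST1H3A), and 1 of these, HIST1H3J, under all 5 scalings. The 5 called with YKL-5-124 and not with THZ1 were HIST1H2AC, HIST1H2BC, HIST1H2BJ, HIST2H4B and HIST3H2A. All 5 were below in THZ1 by the direct test, under all 5 scalings. The split itself moved with the scaling: 8 above and 20 below with library totals, and 2 above and 32 below relative to ribosomal protein mRNAs.

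HIST1H2BJ differed most on the YKL-5-124 side, by -3.78 ± 0.37 SE on the log2 scale (THZ1 24 h against YKL-5-124 24 h, adjusted p = 1.5e-07 by edgeR), and HIST1H2AC by -2.44 ± 0.44 SE (adjusted p = 0.00011 by edgeR). HIST1H2BG differed most on the THZ1 side, by 5.13 ± 0.51 SE (adjusted p = 2.1e-07 by edgeR), followed among the H3 genes by HIST1H3J at 3.87 ± 0.46 SE. HIST1H2BG passed the filter on low counts mainly through the THZ1 24 h libraries, so its call may be largely set by the filter. HIST4H4 differed by 2.75 ± 0.36 SE and HIST2H2BE by 1.49 ± 0.13 SE with TMM. Only 2 genes, HIST1H2BG and HIST1H3J, were called above YKL-5-124 under all 5 scalings, so the calls of HIST4H4 and HIST2H2BE depend on the scaling. In this comparison the median over all genes shifted by -1.27 (log2) with library totals and by -2.77 relative to ribosomal protein mRNAs. HIST1H3H and HIST1H2AG, high after both compounds, did not pass the test of a difference with TMM. HIST1H3H was at 9.54, 12.9 and 16.8 CPM after THZ1 and at 15.1, 13.2 and 10.3 CPM after YKL-5-124, overlapping groups, with a difference of 0.02 and a 95% interval of -0.64 to 0.68. The difference for HIST1H2AG was 0.51, with a 95% interval of -0.04 to 1.05. At 4 h, THZ1 was above YKL-5-124 for 1 histone gene, HIST1H2BG, and below for none, against 11.4% and 21.9% of all genes tested; that call was lost without any 1 of 5 of the 6 libraries.

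Between 4 h and 24 h, 35 of 44 histone genes rose within THZ1 (31.4% of all genes tested rose) and 25 of 44 within YKL-5-124 (9.22% rose), and 0 fell in either. By DESeq2 0 fell in either as well. For THZ1, 17 of the 35 were called under all 5 scalings. The change over time differed between compounds, by the interaction test, for 17 of the 44 genes on the THZ1 side and 7 on the YKL-5-124 side, against 26.6% and 31.0% of all genes tested in the same directions. Without YKL-5-124 4 h replicate 1 the 17 became 7. HIST1H3J and 6 of the 7 genes on the YKL-5-124 side (HIST1H1C, HIST1H2AC, HIST1H2BJ, HIST1H2BK, HIST1H4H and HIST1H4I) were called under all 5 scalings.

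Neighbouring genes that share a promoter region did not always move together. The table holds 11 pairs of histone genes on opposite strands whose starts face away from each other at 219 to 382 bases, each an H2A and an H2B gene, and in 7 pairs both genes were tested. After THZ1, both genes were called higher in 3 pairs, 1 gene in 3 and neither in 1. After YKL-5-124, both were called in 3 pairs and 1 gene in 4. HIST1H2AG and HIST1H2BJ, whose starts lie 292 bases apart with the promoter sequence shown above between them, had log2 fold changes of 3.70 and 4.20 after YKL-5-124 but of 4.21 and 0.42 after THZ1. HIST1H2AC and HIST1H2BC (219 bases) rose together after YKL-5-124 (2.86 and 2.73) and neither was called after THZ1 (0.42 and 0.81). HIST3H2A and HIST3H2BB (234 bases) had -0.19 and 3.13 after THZ1 and 1.18 and 1.87 after YKL-5-124.

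**Figure D4:**
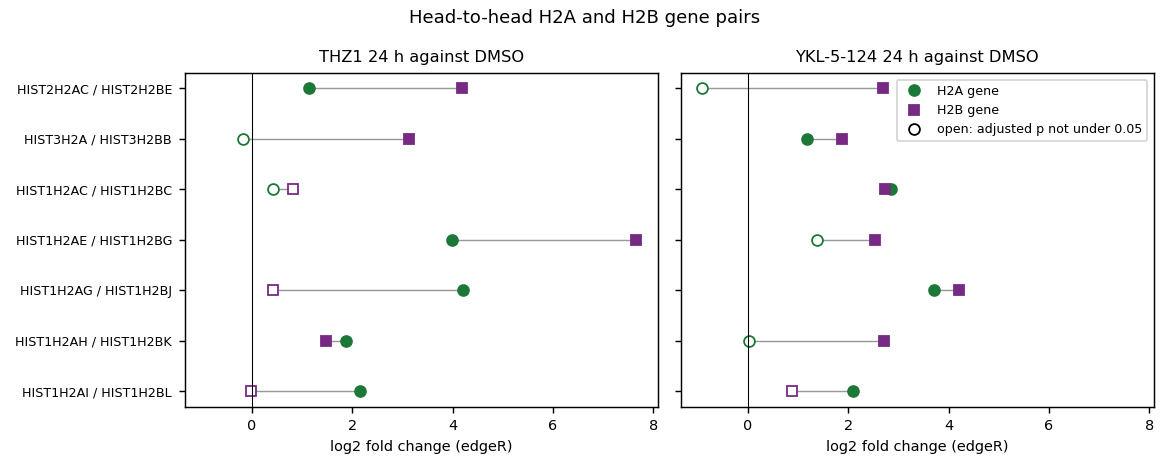
Log2 fold change against DMSO (horizontal axes) after 24 h of THZ1 (left) and YKL-5-124 (right) for the 7 tested head-to-head pairs (rows); circles are H2A genes, squares H2B genes, joined within a pair, and filled where the adjusted p is under 0.05. The pair HIST1H2AG and HIST1H2BJ is far apart after THZ1 (4.21 and 0.42) and close after YKL-5-124 (3.70 and 4.20).

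The rises, called with TMM, were also set against the length of the gene models. Over all genes tested, 32.3% were called higher after 24 h of THZ1 and 8.92% after 24 h of YKL-5-124. The THZ1 counts depend on the scaling, as given above. Of 15 tested genes with models longer than 1000 bases, 12 were called higher after each compound (median log2 fold change 1.99 for THZ1 and 2.48 for YKL-5-124). Of the 29 with models up to 1000 bases, 21 were called higher after THZ1 (median 1.88) and 13 after YKL-5-124 (median 1.17). Of 24 tested genes with a stem-loop in a model, 18 were called higher after THZ1 and 19 after YKL-5-124 (medians 2.07 and 2.43). Of the 20 without one, whose models mostly end at the stop codon, 15 and 6 were (medians 1.65 and 0.23). The table counts whole genes, so reads before and after the stem-loop cannot be told apart, and whether longer transcripts rose was not tested.

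Most genes listed for making and processing histone mRNAs were lower after 24 h of THZ1, and few after YKL-5-124. SLBP, the stem-loop binding protein, was at a mean of 152 ± 25.3 CPM in DMSO, 16.1 ± 2.12 CPM after 24 h of THZ1 and 111 ± 14.8 CPM after 24 h of YKL-5-124 (SD, n = 3). Its log2 fold change was -3.24 ± 0.18 SE for THZ1 (adjusted p = 2.3e-10 by edgeR) and -0.45 ± 0.16 SE for YKL-5-124 (adjusted p = 0.051 by edgeR). NPAT, a coactivator of histone gene transcription, was at 26.2 ± 3.19 CPM in DMSO and 0.916 ± 0.447 CPM after 24 h of THZ1 (log2 fold change -4.84 ± 0.27 SE), and had 0.08 ± 0.19 SE after YKL-5-124. CASP8AP2, a component of the bodies where histone mRNAs are made, had -4.15 ± 0.28 SE after THZ1 and -0.41 ± 0.21 SE after YKL-5-124. Of the 22 listed genes of histone transcription and mRNA 3' end processing, 17 were lower and 4 higher after 24 h of THZ1 (median log2 fold change -1.62, against -0.37 over all genes tested, of which 44.0% were lower), and 6 were lower and 1 higher after YKL-5-124 (median -0.16, against -0.04 over all genes, of which 12.7% were lower). Of 9 listed genes of histone mRNA decay, 8 fell after THZ1 (median log2 fold change -1.51) and 2 after YKL-5-124 (median -0.12), beside the same medians and shares over all genes. PNRC2, a decapping cofactor in this list, fell by 3.69 on the log2 scale after THZ1 and by 0.72 after YKL-5-124.

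Genes of S phase and DNA replication moved opposite to the histone genes after YKL-5-124. Of 30 listed, 25 were lower and 0 higher after 24 h of YKL-5-124 (median log2 fold change -0.69, against -0.04 over all genes tested, of which 12.7% were lower and 8.92% higher). CDC45, a part of the replicative helicase, fell by 1.53, and MCM6, another helicase subunit, fell by 1.28. After THZ1, 19 were lower and 6 higher (median -1.15, against -0.37 over all genes tested, of which 44.0% were lower and 32.3% higher), with CDC6, a licensing factor, falling by 5.00 and TYMS, which makes thymidylate, at 2.44. Among 19 histone genes listed as replication-independent, which lie outside the clusters, 11 were tested. Of these, 5 rose and 6 fell after THZ1, and 1 rose and 4 fell after YKL-5-124. Their medians were -0.29 and 0.03. For THZ1, against the shares of all genes just given, the counts show nothing particular to the list. For YKL-5-124 the 4 of 11 lower are a larger share than the 12.7% of all genes, from few genes. H3F3A, which encodes H3.3, had a log2 fold change of 1.97 ± 0.14 SE after THZ1, smaller in size than the shift of -2.19 given above for ribosomal protein scaling, and H1F0, a linker histone gene, had -2.48 ± 0.11 SE. Of 24 tested genes of histone chaperones and import, 6 rose and 11 fell after THZ1, and 0 rose and 6 fell after YKL-5-124 (medians -0.55 and -0.06), shares for THZ1 near those of all genes.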

How the data were processed

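For the 15 libraries of 5 groups, raw counts per gene, not normalized, are what the authors deposited, in 1 table. The submitters' processing notes name GRCh38, the aligner STAR 2.6.1d, the counter featureCounts 1.5.0-p3 and the test DESeq2 1.24.0. The strand setting and the treatment of reads that match several genes, which bear on near-identical histone genes, are given nowhere in these sources. The 71 histone genes, the gene lists and the rule for named genes were chosen with earlier results of these data known. All 15 libraries were fitted together with edgeR 4.0.16 (R 4.3.3; filterByExpr with a minimum count of 10 and a minimum total of 15, TMM factors, glmQLFit and glmQLFTest, group as the only factor, Benjamini-Hochberg adjustment over 14461 genes, threshold 0.05). The pipeline was tested on simulated data. Standard errors and 95% intervals come from the same fit. CPM uses totals over the tested genes times TMM factors, and CPM per kb divides by the table's gene length. Summaries used pandas 2.3.3. Counting intervals are exact binomial intervals.

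Named with values were the 3 most abundant genes of each histone type, up to 4 called genes in each direction with the largest change from DMSO at a mean CPM of at least 1, up to 2 between compounds, times and for the interaction, the most abundant gene of HIST2, HIST3 and HIST4, and genes called in opposite directions. Of each gene list, up to 2 called genes in each direction were named, with SLBP, NPAT and CASP8AP2 whatever their p. Partners in head-to-head pairs, near-identical copies, genes that hold a printed stem-loop, genes called under every scaling and the exceptions to a count were named after their values were seen. Stem-loops came from GENCODE 29 models, with 68 of 71 histone genes having the same ends in it, and promoters from RefSeq (GRCh38.p14). Alternatives were other scalings, no filter, DESeq2 1.42.0, only the groups compared, a replicate block and leaving out each library.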

Additional observations from a re-analysis of the deposited data

Results flagged for a closer look

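The change from 4 h to 24 h differed between the compounds for part of the 44 tested histone genes, by the interaction test of edgeR. It called 17 on the THZ1 side and 7 on the YKL-5-124 side, against 26.6% and 31.0% of all genes tested. These counts were 2 and 13 with library totals, and 1 and 22 relative to ribosomal protein mRNAs. Without YKL-5-124 4 h replicate 1 the 17 became 7. The 4 named here had the largest differences in each direction among called genes at a mean CPM of at least 1. Each was called against DMSO at 24 h for 1 compound and not for the other, as were further genes that the interaction test called. HIST1H3J changed by 4.24 ± 0.79 SE more on the log2 scale with THZ1 than with YKL-5-124 (adjusted p = 0.00029), and HIST4H4 by 3.34 ± 0.58 SE (adjusted p = 0.00015), which was 2.66 without YKL-5-124 4 h replicate 1. HIST1H2BJ had a difference of -3.26 ± 0.51 SE (adjusted p = 6.1e-05 by edgeR) and HIST1H2AC one of -2.33 ± 0.60 SE (adjusted p = 0.0039 by edgeR), both on the side of YKL-5-124.

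Histone pseudogenes lie outside the 71 genes, and 3 of them passed the filter on low counts. After 24 h of THZ1, 2 of the 3 were called higher than DMSO by edgeR, against 32.3% of all genes tested. After 24 h of YKL-5-124, HIST2H2BD alone was, against 8.92%. HIST1H3PS1 had 0 counts over the 3 DMSO libraries and 186 over the 3 THZ1 24 h libraries (82, 53 and 51), at least 162-fold higher in CPM against a floor of 3 counts over the DMSO group, and 1 in YKL-5-124 24 h. It passed the filter only through the THZ1 24 h libraries, so its call was largely set by the filter. HIST2H2BD had 69 counts in DMSO (0.957 CPM), 79 in THZ1 24 h (2.86 CPM) and 220 in YKL-5-124 24 h (2.82 CPM), with log2 fold changes of 1.59 ± 0.39 SE (adjusted p = 0.0017 by edgeR) and 1.58 ± 0.37 SE (adjusted p = 0.0070 by edgeR). The THZ1 value rests on TMM. In that comparison the median over all genes shifted by -1.13 with library totals and by -2.19 relative to ribosomal protein mRNAs, the latter larger in size than 1.59. The position of HIST2H2BD on chromosome 1, at 149843041 to 149843533, lies inside the span of HIST2H2BE in the table (149842204 to 149886652). The third that passed the filter, HIST2H2BA, had 76 counts in DMSO, 36 in THZ1 24 h and 167 in YKL-5-124 24 h and was not called at 24 h (adjusted p = 0.63 and 0.13 by edgeR). Among those with too few counts to test, HIST2H3DP1 had 13 counts in DMSO and 54 in YKL-5-124 24 h. HIST1H4PS1 had 1 in DMSO, 19 in THZ1 24 h and 14 in YKL-5-124 24 h, and HIST1H2BPS2 had 0 in DMSO and 12 in YKL-5-124 24 h.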

How the results depend on the processing

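Counts of histone genes called and signs of single genes and sums were recomputed under each alternative: 860 values kept their direction and side of the threshold (for values with no test, within the spread of replicates), 63 of those past the threshold fell short of it, 36 moved and 19 reversed; the cause was not tested. Relative to ribosomal protein mRNAs, 12 genes were lower after THZ1 at 4 h, 10 were higher and 16 lower after THZ1 at 24 h and 0 lower after YKL-5-124 at 24 h. THZ1 against YKL-5-124 then gave 0 higher and 6 lower at 4 h, and 2 higher and 32 lower at 24 h. THZ1 at 24 h against 4 h gave 17 and 9, and the interaction 1 and 22. HIST1H1C (-1.39), HIST1H2BK (-0.68), HIST1H4H (-0.90), HIST1H4I (-1.02), HIST2H2BF (-1.35) and HIST2H3D (-0.50) reversed in log2 fold change at 24 h of THZ1. The log2 ratio of summed levels was -0.52 for THZ1 at 4 h, -0.40 for THZ1 at 24 h, 2.91 for YKL-5-124 at 24 h, and -0.41 and -3.31 between compounds at 4 h and 24 h. At 24 h of THZ1 it was -1.62 for H1, -0.54 for H2A, -0.0762 for H2B and -0.37 for H4, and for H3 between compounds it was -1.81. With library totals, 18 were higher and 3 lower after THZ1 at 24 h and 0 lower after YKL-5-124. Between compounds 0 were higher and 3 lower at 4 h, and 8 higher and 20 lower at 24 h. THZ1 at 24 h against 4 h gave 1 lower, and the interaction 2 and 13. HIST1H1C was at -0.34 and HIST2H2BF at -0.32, and the summed ratios were 0.63 for THZ1, -1.84 between compounds, -0.56 for H1 after THZ1 and -0.35 for H3 between compounds. RLE factors gave 2 lower at 4 h of THZ1 and 0 at 24 h, and upper-quartile factors gave 0 at 24 h. DESeq2 gave 1 higher at 4 h of THZ1 and 0 lower at 24 h. With no filter, 2 were higher at 4 h and 2 lower at 24 h of THZ1, and 1 was lower between compounds at 4 h. With only the compared groups in the fit, 1 was lower at 4 h and 0 at 24 h of THZ1, and 0 were higher between compounds at 4 h. Without the most abundant gene, summed H1 gave -0.82 after THZ1 and -0.44 after YKL-5-124, and H2B gave 0.0839 and H4 0.40 between compounds at 24 h.

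The labels do not say what a replicate number marks. In no direct comparison of groups did all 3 same-numbered pairs correlate above 0.1, so the numbers were not taken to pair the libraries. The pairs of THZ1 24 h and YKL-5-124 4 h, which meet only in the interaction test, were at 0.34, 0.11 and 0.14. The deviations of same-numbered libraries correlated at -0.47 to 0.53 over 30 pairs, 20 of them over 0.1. The 10 pairs numbered 1 were at 0.23 to 0.53, and 8 of 15 libraries were closest to their own number. With the replicate block, 2 genes were lower after YKL-5-124 at 24 h, against 1 without it. Leaving out 1 library gave 31 to 34 higher and 0 to 1 lower after THZ1 at 24 h, 21 to 23 higher and 0 to 1 lower after YKL-5-124 at 24 h, 0 to 1 higher and 0 to 4 lower after THZ1 at 4 h and 0 after YKL-5-124 at 4 h. It gave 18 to 21 higher and 10 to 11 lower between compounds at 24 h, and 0 to 2 and 0 to 3 at 4 h. Between times it gave 31 to 37 higher for THZ1, 20 to 25 for YKL-5-124 and 0 lower, and for the interaction 7 to 18 and 6 to 9. Depth limits the 18 genes that had counts but could not be tested.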
